A study of Mus musculus with 8 samples.

Results

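Mucins are large glycoproteins that coat and protect epithelial surfaces, and 9 mucin genes were followed here in 2 mouse pancreatic tumors: the secreted, gel-forming Muc2, Muc5ac and Muc6, and the membrane-bound Muc1, Muc3, Muc4, Muc13, Muc16 and Muc20. They were taken by symbol, whatever their level, and are 9 of the 27775 gene rows in each count table. Each mucin has 1 row, all 9 had a UMI in the medium-size tumor, and 6 had one in the large-size tumor, where Muc5ac, Muc16 and Muc20 were listed at 0.

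Both tumors are pancreatic ductal adenocarcinomas of untreated KPC mice, which carry LSL-Trp53 R172H/+ and Pdx-1-Cre among their alleles, so that mutant Trp53 is switched on wherever the Pdx1 promoter drives Cre, in pancreatic precursors. No age and no tumor measurement is in the labels, and no wild-type tissue was measured. A medium-size and a large-size tumor were dissociated to single cells and captured with the 10x Genomics Chromium 3′ kit, with 4 technical replicates a tumor that share 1 table, so each size is 1 sample. No test between the sizes was therefore possible, and every interval given is a 95% interval for counting error alone. Some intervals for the spread over clusters rest on a floor, as said there. The medium-size tumor has 2812 cells with a median of 5457 UMIs, and the large-size tumor 1533 cells with a median of 1037, where a UMI (unique molecular identifier) stands for 1 captured mRNA molecule. The tables share 5 cell barcodes.

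Secreted mucins form mucus gels, and the stomach and intestine divide them: Muc5ac is made by the pit cells of the gastric surface, Muc6 by the deeper mucous neck cells, and Muc2 by the goblet cells of the intestine. Membrane mucins stay anchored at the apical surface, where they form the glycocalyx, and Muc1 is found on most ductal epithelia. Pancreatic precursor lesions and carcinomas often gain gastric mucins such as Muc5ac.

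The mucin genes sit in groups on the GRCm38 assembly (the build the submitters name as mm10). Muc6 (chr7:141633456-141655319, minus strand), Muc2 (chr7:141690340-141754693, plus strand) and Muc5ac (chr7:141788972-141819231, plus strand) are neighbours, 35.0 and 34.3 kb apart, and Muc5b follows 19.8 kb further on. Muc4 (chr16:32735886-32782391, plus strand) and Muc20 (chr16:32777419-32797435, minus strand) overlap by 4973 bases on opposite strands, and the sources used here do not say whether reads were counted by strand, so reads in the overlap are of uncertain origin. Muc13 lies at chr16:33794037-33819934. Muc3 (chr5:137134922-137149322, minus strand) has the related Muc3a 59.5 kb away, and reads shared by these relatives could have been lost or split. Muc1 is at chr3:89229057-89233381 and Muc16 at chr9:18495455-18674530.

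The 250 bases before the start of transcription are shown for 6 mucins whose levels the results turn on: the gel-forming neighbours Muc6 and Muc2, then Muc1, and then Muc3, Muc4 and Muc13. They come from RefSeq (GRCm38.p6), which matched 8 of the 9 mucins, and read 5′ to 3′ on the gene's own strand. Capitals mark matches on either strand to 6 motifs, named for the factors that bind such letters. The GATA motif is AGATAA. The motif of the FOXA factors is TGTTTAC. For the intestinal CDX factors the motif TTTATNG was searched. For HNF1 part of the site, GTTAAT, was searched. The TATA box was taken as TATAAA. The SP1 motif is GGGCGG.
Muc6, chr7:141655394-141655643, minus strand: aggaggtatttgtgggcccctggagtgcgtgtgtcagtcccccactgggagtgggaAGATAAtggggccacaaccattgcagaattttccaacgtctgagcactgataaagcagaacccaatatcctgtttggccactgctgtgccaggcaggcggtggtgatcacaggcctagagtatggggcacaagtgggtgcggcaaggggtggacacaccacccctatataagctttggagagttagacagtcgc
Muc2, chr7:141690090-141690339, plus strand: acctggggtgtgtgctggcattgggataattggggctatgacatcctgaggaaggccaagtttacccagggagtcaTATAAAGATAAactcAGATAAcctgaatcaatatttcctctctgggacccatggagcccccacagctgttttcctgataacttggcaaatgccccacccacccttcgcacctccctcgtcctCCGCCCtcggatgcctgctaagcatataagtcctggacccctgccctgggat
Muc1, chr3:89228806-89229055, plus strand: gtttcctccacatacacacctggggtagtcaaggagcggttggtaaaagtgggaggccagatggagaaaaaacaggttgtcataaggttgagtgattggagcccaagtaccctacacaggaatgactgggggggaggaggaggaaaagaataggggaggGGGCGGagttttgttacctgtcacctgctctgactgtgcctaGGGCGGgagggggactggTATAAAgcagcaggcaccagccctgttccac
Muc3, chr5:137166047-137166296, minus strand: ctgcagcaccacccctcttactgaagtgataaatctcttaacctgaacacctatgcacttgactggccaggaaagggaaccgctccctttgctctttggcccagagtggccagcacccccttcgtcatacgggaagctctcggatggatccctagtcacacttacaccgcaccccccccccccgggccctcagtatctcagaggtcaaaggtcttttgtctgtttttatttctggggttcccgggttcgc
Muc4, chr16:32735636-32735885, plus strand: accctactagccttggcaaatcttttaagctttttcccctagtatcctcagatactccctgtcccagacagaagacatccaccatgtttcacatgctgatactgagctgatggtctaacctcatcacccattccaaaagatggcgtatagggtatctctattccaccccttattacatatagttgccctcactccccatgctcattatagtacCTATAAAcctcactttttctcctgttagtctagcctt
Muc13 (the downstream of 2 starts), chr16:33794239-33794488, plus strand: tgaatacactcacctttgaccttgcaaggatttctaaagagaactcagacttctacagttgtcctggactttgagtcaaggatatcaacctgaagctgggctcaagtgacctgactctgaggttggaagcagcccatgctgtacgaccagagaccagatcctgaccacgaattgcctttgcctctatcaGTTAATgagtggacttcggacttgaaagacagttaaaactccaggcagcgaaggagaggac

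The Muc1 window held a TATA box match 31 to 26 bases before the start and 2 SP1 matches. The Muc2 window held 2 GATA matches, 1 of which shares bases with a TATA box match, and 1 SP1 match. In Muc6 there was 1 GATA match, in Muc4 a TATA box match that overlaps a CDX match, and at the downstream Muc13 start 1 HNF1 match, while the window of the other Muc13 start, not printed, held none of the 6 motifs. No motif of the 6 matched in the Muc3 window, whose RefSeq start lies upstream of the annotated gene interval given above. Of 32851 RefSeq promoters cut to the same window, 9.99% held the GATA letters, 9.81% the CDX letters, 6.43% the HNF1 letters, 12.4% the TATA box and 32.7% the SP1 letters, so single matches of this kind were common. The matches describe letters, not binding.

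Cells of each tumor were clustered with every mucin gene left out, and clusters were named from markers that hold no mucin. A marker counted for a cluster only where its level was at least 25% of that in its highest cluster, so one not counted could still be present. In the medium-size tumor, 8 of 14 clusters were epithelial-like and held 2329 cells. Cluster 1 was led by the gastrokines Gkn1, Gkn3 and Gkn2, secreted proteins of the gastric surface, and held 6 of 7 gastric pit and 4 of 5 gastric neck markers. Cluster 2 was led by Mcpt8 and Cldn6, cluster 3 by cell cycle genes, cluster 4 by Tff3, Ly6d and Reg1, cluster 5 by Yap1 and Birc2, cluster 6 by Krt17, cluster 7 by Dmbt1 and Lcn2, and cluster 8 by Inhba and Bmp2. Cluster 8 reached the name with only 3 of 12 epithelial markers and showed 4 of 9 mesenchymal ones. The other cells were monocyte/macrophage-like (clusters 9 and 13), fibroblast-like (11), endothelial-like (14) and 2 unnamed groups. Cluster 10 held 6 of 6 mesothelial and 6 of 10 fibroblast markers. Cluster 12 held 11 of 12 epithelial and 8 of 11 monocyte/macrophage markers, with Laptm5 and Tyrobp among its leading genes.

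In the large-size tumor, 7 of 11 clusters were epithelial-like, with 947 cells. Cluster 4 was led by Papss2, Guca2b and Fabp1 and held 9 of 12 enterocyte markers. Cluster 8 was led by Zg16, Tff3 and Fcgbp, with 6 of 11 goblet and 7 of 12 enterocyte markers. Cluster 7 was led by Lgals2, Dmbt1 and Agr2, cluster 6 by Gkn2, Gkn3, Tff1 and Tff2, cluster 3, with a median of 828 UMIs, by 1500012F01Rik, Onecut2, Xist, Sat1 and Malat1, with ribosomal genes after them, cluster 5 by cell cycle genes, and cluster 10, of 16 cells, by Upk3a. No cluster of either tumor was acinar or endocrine. Cluster 1 of the large-size tumor, 272 cells, stayed unnamed.

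Mucin transcripts were most frequent in epithelial-like cells in both tumors. In the medium-size tumor, 78.2% of the epithelial-like cells had at least 1 UMI of a mucin among the 9, against 7.56% of the monocyte/macrophage-like cells, at median depths of 5980 and 3516 UMIs a cell. The large-size tumor had a share of 47.0% of its epithelial-like cells, at a median of 1090 UMIs. Summed over cells and given as CPM, the counts out of every 1000000 UMIs of those cells, the 9 genes together reached 454 CPM in the epithelial-like and 129 CPM in the other cells of the medium-size tumor. The same sums were 619 and 66.1 CPM in the large-size tumor.

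Of the 7 mucins with at least 20 UMIs in the medium-size tumor, 6 were at least 2-fold higher in epithelial-like than in other cells, where 12.4% of the 12681 genes tested were. In the large-size tumor 6 of 6 were, against 12.8% of 7596 genes. Muc1 was at 269 CPM in the epithelial-like and 68.1 CPM in the other cells of the medium-size tumor, a ratio of 3.95 (interval 3.36 to 4.68), and the ratio was 5.05 (3.07 to 8.86) in the large-size tumor. For Muc3 it was 3.22 (2.62 to 4.02) and 9.12 (5.82 to 15.1). The size of these ratios depended on the cells set against the epithelium. Without the 5% of cells with the highest Scrublet (doublet) scores, the medium-size ratio was 7.24 for Muc1 and 9.42 for Muc3, and over 11 settings it ran from 3.95 to 8.80 and from 3.21 to 13.3. Over 11 settings in the large-size tumor it ran from 2.66 to 11.1 for Muc1 and from 4.54 to 12.3 for Muc3.

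Muc6 was 2.60 times higher (1.70 to 4.20) in epithelial-like than in other medium-size tumor cells, and its 22 UMIs among the latter all lay in the unnamed clusters 10 and 12. The Muc6 ratio was 12.9 without the unnamed clusters, 8.59 with each cell classed by its own markers and 14.5 without the cells of highest Scrublet score. Muc6 was at 38.3 against 1.38 CPM in the large-size tumor, on 58 and 1 UMIs, a ratio of 27.8 (4.80 to 1118). With that 1 UMI set to the floor of 3 counts the ratio was 9.28, and it ran from 2.61 to 9.44 over 11 settings. Muc4 was 2.62 times higher (1.47 to 5.13) in the medium-size tumor, and up to 5.84 in other settings. Muc5ac had 112 UMIs in the epithelial-like cells and 0 elsewhere, and Muc20 had 55 and 0. With the other cells set to a floor of 3 counts they were 4.58-fold and 2.25-fold higher. The intervals of their ratios began at 3.66 and 1.77, so that of Muc20 reached under the 2-fold line. On this floor Muc20 fell under 2-fold, to 1.52, without the unnamed clusters and to 1.96 with cells classed one by one. Muc13 was under the 2-fold line in the medium-size tumor, at 2.16 against 1.80 CPM on 43 UMIs, with an interval of the ratio from 0.432 to 4.61. It passed the line, at 2.93, with variable genes by mean.var.plot and, at 2.12, without the cells of highest Scrublet score, and 7 of 7 were then 2-fold higher. Muc13 was in the other tumor at 89.2 against 8.27 CPM, 10.8 times higher (4.83 to 29.9), a ratio that ran from 1.83, with cells classed one by one, to 16.3 over 11 settings.

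Free RNA can give UMIs in cells that do not make a transcript, and for Muc1 and Muc3 of the medium-size tumor the level in monocyte/macrophage-like cells lay within the range of other epithelial genes. In the medium-size tumor, Muc1 in monocyte/macrophage-like cells stood at 6.47% of its epithelial-like level (3.69 to 10.5) and Muc3 had an interval from 2.80% to 12.8%. The 12 epithelial markers stood there at 4.96% to 10.7%, with a median of 6.65%. Muc4, on 3 UMIs, stood at 23.0% (4.72 to 68.0). Muc6 and Muc5ac had 0 UMIs in these 238 cells, where the floor of 3 counts is 3.26 CPM. Muc3 stood at 12.2% in the large-size tumor (4.44 to 26.8) and Muc1 had 0 UMIs, where the epithelial markers ran from 0% to 15.4%. The 39 endothelial-like cells of the medium-size tumor held more Muc1, Muc3 and Epcam than the monocyte/macrophage-like cells. Muc1 was at 119 CPM (79.8 to 171) and Muc3 at 90.3 CPM (56.6 to 137) there, and Epcam, an epithelial surface protein, was at 665 CPM, against 1091 CPM in the epithelial-like cells. In the 67 fibroblast-like cells Muc1 was at 33.1 CPM (16.5 to 59.3) and Muc3 at 27.1 CPM (12.4 to 51.5). The part of free RNA and of cells captured together in these values was not tested.

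**Figure D1:**
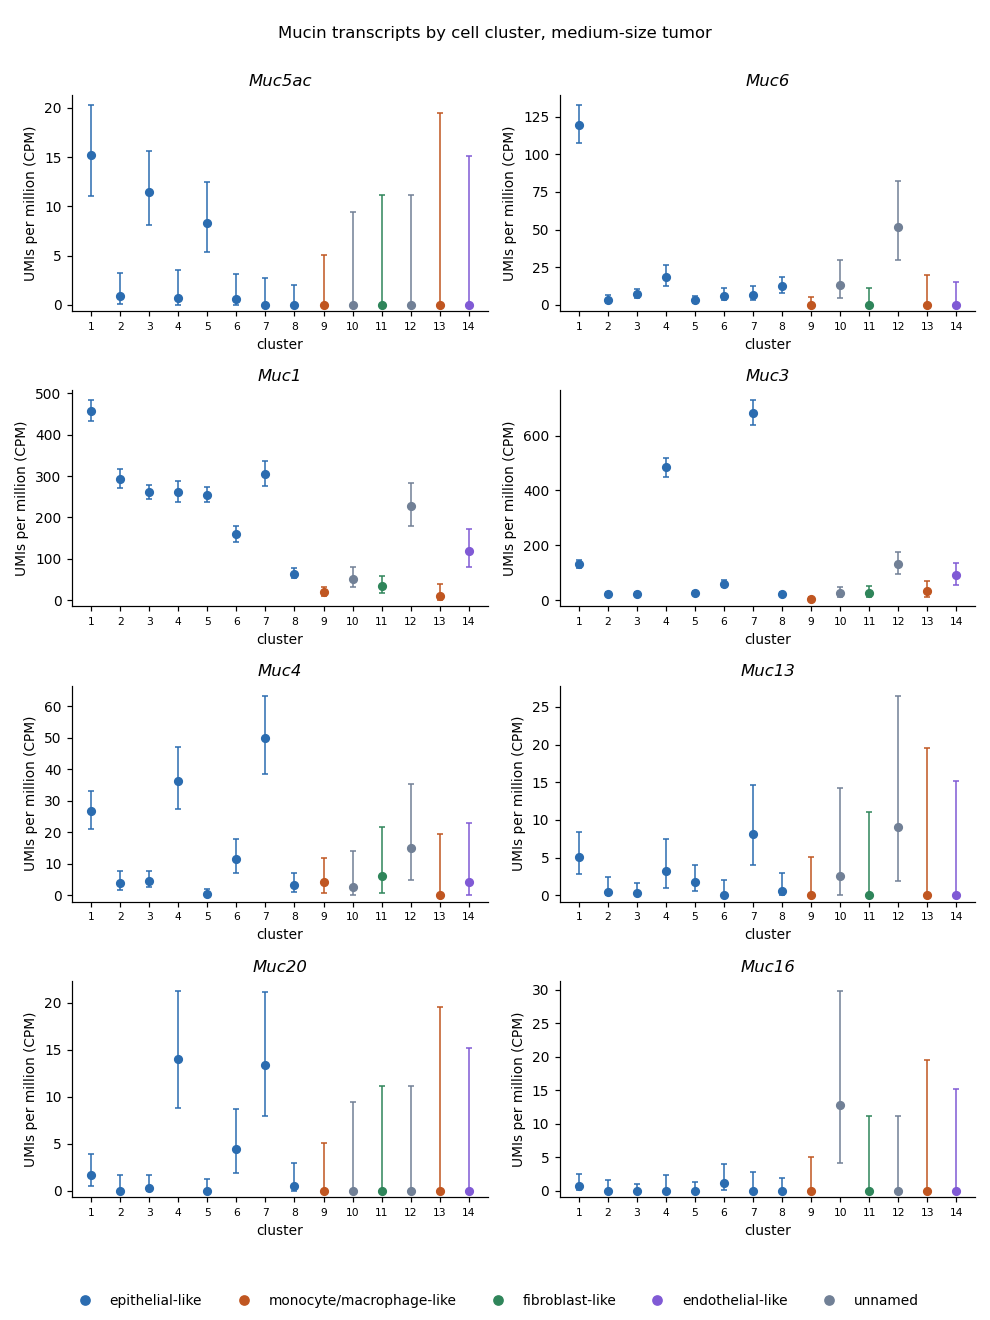
Level (CPM) of 8 mucins in each of the 14 clusters of the medium-size tumor; points are sums over a cluster's cells, bars are exact Poisson 95% intervals, and colors give the class. Muc6 peaks in cluster 1 at 119.7 CPM, and Muc3, Muc4 and Muc20 are high in clusters 4 and 7. Muc2, with 3 UMIs, is not drawn.

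Each measured mucin varied over the carcinoma states of the medium-size tumor. All 7 tested had a highest epithelial-like cluster at least 4-fold above the lowest, clusters with under 3 UMIs being set to 3, as did 32.9% of the 12119 genes tested. In the large-size tumor 6 of 6 did, but so did 83.6% of the 6334 genes tested, and that count says nothing particular of the mucins: the 16 cells of cluster 10 are so few that 3 UMIs there are 170.0 CPM. With the highest cluster required to hold 3 UMIs, a rule chosen after that share was seen, the background was 37.2% and the mucins again 6 of 6, with the value of Muc4 falling from 34.9-fold to 16.8-fold. Among the medium clusters the spread was 7.18-fold for Muc1 (5.95 to 8.72), 9.33-fold for Muc13 (2.46 to 52.1), 11.3-fold for Muc5ac (3.62 to 56.7), 16.0-fold for Muc20, 32.1-fold for Muc3 (23.4 to 45.3), 38.2-fold for Muc6 (19.9 to 84.3) and 47.8-fold for Muc4 (15.7 to 238). For Muc5ac, Muc13, Muc20 and Muc4 the lowest cluster held under 3 UMIs, so their folds and intervals rest on the floor of 3 counts. The intervals do not cover the picking of the highest and lowest clusters. Muc1 fell under 4-fold, to 3.48 with variable genes by mean.var.plot and to 3.34 without the cells of highest Scrublet score, which left 6 of 7. Over 9 settings the spread ran from 27.7 to 158 for Muc3, from 22.1 to 78.7 for Muc6 and from 17.0 to 47.8 for Muc4.

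Among the gel-forming mucins, Muc6 was highest in the gastrokine cluster of each tumor. In the medium-size tumor 355 of its 489 UMIs came from cluster 1, at 119.7 CPM (108 to 133). The next epithelial-like values were 18.5 CPM in cluster 4 (12.4 to 26.6), 12.2 in cluster 8, 7.02 in cluster 3, 6.70 in cluster 7 and 6.09 in cluster 6, with 3.14 and 3.13 in clusters 2 and 5. Outside them, the unnamed cluster 12, with 11 of 12 epithelial and 8 of 11 monocyte/macrophage markers, stood second of all clusters at 51.3 CPM (29.9 to 82.2), on 17 UMIs in 4 cells. No interval met that of cluster 1, and those of clusters 12 and 4 did not meet, while those of clusters 4 and 8 met each other. Of 59 UMIs in the large-size tumor, 48 came from cluster 6, also led by gastrokines, at 170.2 CPM (125 to 226), and cluster 3 had 26.8 CPM (9.82 to 58.2).

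Muc6 was concentrated in few cells even there. Of the 455 cells of medium cluster 1, 106 (23.3%, 19.5 to 27.5) had a Muc6 UMI, at a cluster median depth of 5465 UMIs, 22 cells had 5 or more, and 1 cell had 27. The 23 cells richest in it held 59.7% of the cluster's Muc6. For comparison, Muc1, on 1359 UMIs, was seen in 395 of these cells, and the 23 cells richest in Muc1 held 19.4% of it. Such shares also rise where UMIs are few: the like share was 40.3% for Muc3 on 390 UMIs, 54.4% for Muc4 on 79 and 88.9% for Muc5ac on 45.

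Within cluster 1, the cells with a Muc6 UMI were richer in several neck and pit cell genes. They had a median of 5865 UMIs, against 5311 in the 349 cells without one. Tff2, the trefoil factor of neck cells, was at 1674 CPM in cells with Muc6 and 160.3 CPM in those without, a ratio of 10.4 (9.28 to 11.8), though only 24.5% and 16.0% of the cells had a Tff2 UMI. Over the clusters of this tumor the 2 genes did not peak together: Tff2 was highest in cluster 4, at 1331 CPM, where Muc6 was at 18.5 CPM. Pgc, the pepsinogen C gene, was 3.63 times higher (2.56 to 5.16), and was seen in 32.1% and 11.5% of the cells. The neck markers Gkn3 and Aqp5 were 2.76 and 1.80 times higher. The pit markers Gkn2, Tff1 and Gkn1 were 3.07, 2.40 and 2.28 times higher as well, Ctse and Vsig2 were at 1.09 and 0.969, while Psca was 0.656 times as high (0.570 to 0.754) and Muc3 0.606 times (0.456 to 0.794).

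In the gastrokine cluster of the large-size tumor, 2 of 3 neck and 3 of 6 pit genes compared were higher in cells with Muc6, with intervals above 1. Its 29 cells with a Muc6 UMI had 7.64 times the Tff2 level (6.70 to 8.72) and 9.70 times the Gkn2 level (7.94 to 11.9) of the 107 cells without, and Gkn1 was 5.98, Gkn3 3.31 and Tff1 2.37 times higher. Psca had 1 UMI in the cells with Muc6, and its interval ran from 0.00560 to 1.45, and the intervals of Aqp5, Ctse and Vsig2 also held 1. A Tff2 UMI was seen in 75.9% and 48.6% of the cells, at median depths of 1639 and 1944 UMIs. Muc1 did not separate from 1 there, at 0.663 (0.253 to 1.47), nor in medium cluster 1, at 0.920 (0.808 to 1.04). These intervals do not cover the spread between cells. No share over all genes is given beside these comparisons, so the counts cannot be set against one.

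Muc5ac had 112 UMIs in 56 cells of the medium-size tumor and 0 in the large-size tumor. It was at 15.2 CPM in cluster 1 (11.1 to 20.3), 11.4 CPM in the cycling cluster 3 (8.12 to 15.6) and 8.35 CPM in cluster 5 (5.35 to 12.4), whose intervals met. The other 5 epithelial-like clusters had at most 2 UMIs each. A single cell gave 22 of the 39 UMIs of cluster 3, and another gave 9 of the 24 of cluster 5, while no cell of cluster 1 had more than 4. Muc5b, the next gene on the chromosome and not among the 9, had 18 of its 35 UMIs in cluster 5.

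Muc5ac and Muc6 met in 11 cells. Over all medium-size epithelial-like cells, Muc6 was 3.63 times higher (2.68 to 4.84) in the 56 cells with Muc5ac than in the 2273 without, at median depths of 8837 and 5934 UMIs. Within cluster 1 that ratio was 1.60 (1.17 to 2.16). In the same cluster the cells with Muc5ac had 3.55 times as much Tff1 (3.41 to 3.69), the trefoil factor of pit cells, and 1.65 times as much Psca (1.41 to 1.91), and 2.03 times as much Gkn2, with Tff2 between 1.30 and 1.74, Gkn3 at 0.778 (0.730 to 0.828) and Ctse at 0.665 (0.579 to 0.760). No Muc4 UMI fell in a cell with Muc5ac, where the ratio's interval ran from 0 to 0.412.

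Muc2 was read almost only in the large-size tumor. The medium-size tumor had 3 UMIs, in 3 cells, which is 0.148 CPM over all its cells. The large-size tumor had 142 UMIs in 48 cells, and clusters 8 and 7 held 117 of them, at 899.7 CPM (668 to 1186) and 525 CPM (407 to 666). Cluster 4 came next at 47.5 CPM, from 9 UMIs in 1 cell, and the monocyte/macrophage-like cells had 1 UMI (5.10 CPM). Muc2 was seen in 28.3% of the cells of cluster 8 (17.5 to 41.4) and 20.6% of those of cluster 7 (13.2 to 29.7), against 0.395% of the monocyte/macrophage-like cells, at median depths of 776, 1059 and 688 UMIs.

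The cells with Muc2 in cluster 8 were richer in most of the goblet cell genes compared, for which no share over all genes is given either. There, Zg16, a zymogen granule lectin, was 38.6 times higher (28.2 to 54.2) in the 17 cells with Muc2 than in the 43 without, and was seen in 76.5% and 9.30% of them. Fcgbp, a protein of the mucus gel, was 15.9 times higher (8.51 to 32.2), Tff3 14.3 times (11.5 to 18.0) and Clca1 17.8 times (6.13 to 70.2). Ccl6, also on the goblet list, was at 3.32 (0.954 to 11.9), on 7 and 6 UMIs. The enterocyte genes did not move as 1 group: Fabp2 was at 1.80 (1.21 to 2.65), Fabp1 at 1.07 (0.810 to 1.40), Apoa1 at 0.957 (0.629 to 1.42), Alpi at 0.543 (0.275 to 0.993) and Apoa4 at 0.462 (0.312 to 0.667). Median depth was 726 UMIs with Muc2 and 809 without.

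Cluster 7 gave a like picture with fewer goblet markers. There, Spink4 was 26.5 times higher (15.8 to 47.7) in the 21 cells with Muc2 than in the 81 without, Tff3 9.78 times (6.93 to 14.1) and Agr2, which folds mucin chains, 7.93 times (6.75 to 9.34), while Fabp1 was at 0.0447 (0.0121 to 0.116) and Fabp2 at 1.11 (0.642 to 1.86). Zg16 was seen in 2 of the 21 cells and in none of the others. Spdef was at 31.3 CPM in this cluster and Cdx1, a factor of the intestinal epithelium, at 203.6 CPM, while Atoh1 was at 0 in every cluster of both tumors.

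**Figure D2:**
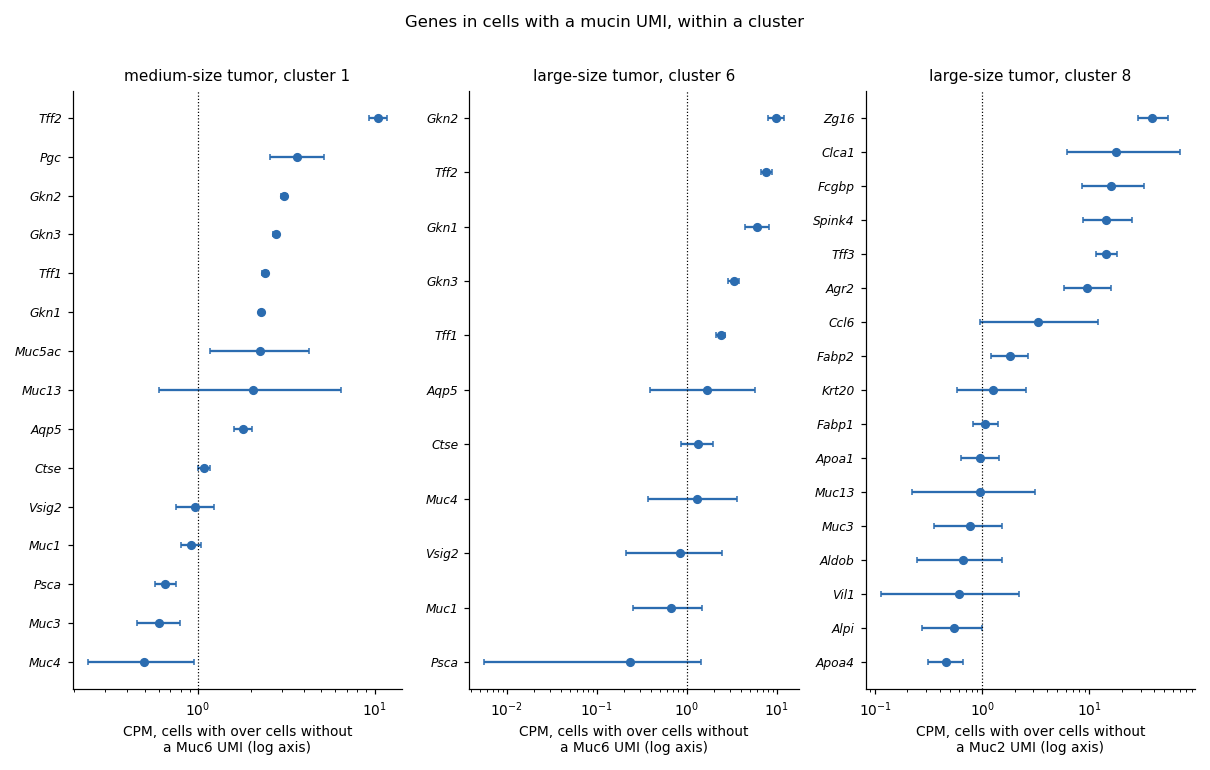
Ratio of CPM between cells with and cells without a UMI of the named mucin, within 1 cluster, on a log axis; bars are exact 95% intervals for counting error and the dotted line marks equality. Tff2 is 10.4 times higher in Muc6 cells of medium cluster 1, and Zg16 38.6 times higher in Muc2 cells of large cluster 8, where Fabp1 is at 1.07. Every gene compared that had UMIs in both kinds of cell is drawn.

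Muc1, the membrane mucin of ducts, was seen in more cells than any other of the 9 in the medium-size tumor, while in the large-size tumor Muc3 was seen in 212 cells and Muc1 in 152. In the medium-size tumor 5012 UMIs fell in 1684 cells, and 69.0% of the epithelial-like cells had one (67.1 to 70.9), against 5.88% of the monocyte/macrophage-like cells (3.25 to 9.67). With every cell thinned to 2500 UMIs the shares were 44.4% and 4.20%. Its level was 458 CPM in cluster 1 (434 to 483), then 305 in cluster 7, 293 in cluster 2, 262 in cluster 4, 260.4 in cluster 3 and 255 in cluster 5, then 159 in cluster 6 (141 to 178) and 63.9 in cluster 8 (52.9 to 76.3). Cluster 1 stood above all and clusters 6 and 8 below the rest, and each of the 5 between them had an interval that met the next in order.

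Muc1 in the large-size tumor was at 201 CPM in cluster 3 (146 to 269), 199 in cluster 6 (150 to 258) and 120.0 in the cycling cluster 5 (94.2 to 151). The clusters with enterocyte or goblet markers, and cluster 7, were low: 1 UMI in cluster 4 (5.28 CPM), 1 in cluster 8 (18.0 CPM) and 2 in cluster 7 (15.7 CPM). The unnamed cluster 1 had 35.9 CPM (20.5 to 58.3). Muc1 and Muc2 seldom met in a cell: over the epithelial-like cells, Muc2 was 0.160 times as high (0.0633 to 0.340) in the 137 cells with Muc1 as in those without, at median depths of 2177 and 985 UMIs, and 1 cell had both.

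Muc3, a membrane mucin of the intestinal brush border, was high in 2 of the medium clusters and in the enterocyte-marked ones of the large-size tumor. It was at 684 CPM in cluster 7 (640 to 729) and 485 CPM in cluster 4 (451 to 520) of the medium-size tumor, which held 918 and 760 of its 2510 UMIs. Cluster 1 followed at 131 CPM (119 to 145) and cluster 6 at 59.8 (49.1 to 72.2), and clusters 5, 2, 3 and 8 ran from 26.1 down to 21.3 CPM with meeting intervals. A Muc3 UMI was seen in 80.5% of the cells of cluster 7 and 71.8% of those of cluster 4, against 1.26% of the monocyte/macrophage-like cells, at median depths of 5235, 4329 and 3516 UMIs. Among large-size clusters Muc3 was at 1526 CPM in the enterocyte-marked cluster 4 (1355 to 1713) and 936 CPM in cluster 8 (699 to 1227), then at 117 CPM in cluster 7, and between 14.6 and 35.7 CPM in clusters 3, 5 and 6.

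The relative Muc3a, not among the 9, did not follow it closely. Muc3a had 217 UMIs in the medium-size tumor and was at 28.7 CPM in cluster 1 (22.9 to 35.4), 26.1 in cluster 4 and 25.3 in cluster 7, with meeting intervals. It had 9 UMIs in the large-size tumor, 1 of them in cluster 4.

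Muc4, whose product binds the receptor Erbb2, followed Muc3 in the medium-size tumor. It was at 49.9 CPM in cluster 7 (38.7 to 63.4), 36.3 in cluster 4 (27.5 to 47.1), 26.6 in cluster 1 (21.1 to 33.2) and 11.6 in cluster 6, and at 4.68 CPM or less in the other epithelial-like clusters, with 1 UMI in cluster 5. Outside them it was at 15.1 CPM in the unnamed cluster 12, on 5 UMIs, and at 6.02 CPM or less elsewhere. Over the epithelial-like cells, Muc4 was 6.68 times higher (5.04 to 8.96) in the 714 cells with Muc3 than in the 1615 without, at median depths of 5915 and 6006 UMIs. Within cluster 4 that ratio was 1.79 (0.842 to 4.38) and within cluster 7 it was 2.84 (1.05 to 10.7), both lower than over all these cells and with wide intervals. Muc4 had 46 UMIs in the large-size tumor, all in epithelial-like cells, of which 23 were in the gastrokine cluster 6 (81.5 CPM, 51.7 to 122) and 12 in cluster 3 (53.5 CPM, 27.7 to 93.5).

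Muc20 had 55 UMIs in 52 cells of the medium-size tumor, 22 in cluster 4 (14.0 CPM, 8.79 to 21.2) and 18 in cluster 7 (13.4 CPM, 7.94 to 21.2). It was 6.45 times higher (3.48 to 12.6) in cells with Muc3 than in cells without, at 0.995 (0.352 to 3.45) within cluster 4 and 1.44 (0.339 to 12.9) within cluster 7. Muc4 and Muc20 share 15 cells, and the overlap of their genes leaves the origin of part of these reads uncertain.

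Muc13, a membrane mucin of the intestine, was sparse in the medium-size tumor and abundant in the large. Its 43 UMIs in the medium-size tumor included 15 in cluster 1 (5.06 CPM, 2.83 to 8.34) and 11 in cluster 7 (8.19 CPM, 4.09 to 14.7). Of 141 UMIs in the large-size tumor 100 lay in cluster 4 (528 CPM, 430 to 642), 16 in cluster 8 (288 CPM, 165 to 468) and 12 in cluster 7 (93.9 CPM, 48.5 to 164). Muc13 and Muc3 were seen together in 59 cells there, and Muc13 was 8.97 times higher (6.26 to 13.0) in the 196 cells with Muc3 than in the 751 without, at median depths of 940 and 1153 UMIs. Inside cluster 4 alone, Muc3 was 1.15 times as high (0.900 to 1.46) in cells with Muc13 as in those without. Of the 9 enterocyte genes compared there, Fabp1 was at 0.822 (0.770 to 0.877), and the other 8, among them Alpi, Vil1 and Apoa4, had intervals that held 1. In cluster 8, with 12 cells with Muc13, Fabp1 went the other way, at 1.68 (1.28 to 2.19). The goblet genes Fcgbp, Tff3 and Zg16 were at 2.64, 1.92 and 1.58 there, and the intervals of the other genes compared held 1.

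Muc16, known as the CA125 antigen and made by mesothelium, had 9 UMIs in the medium-size tumor and 0 in the large, where 3 counts over all cells are 1.34 CPM. Of the 9, 5 were in the 74 cells of cluster 10, at 12.8 CPM (4.15 to 29.8), and 4 in the 2329 epithelial-like cells, at 0.221 CPM (0.0603 to 0.566). Cluster 10 is the unnamed group with 6 of 6 mesothelial markers, and Msln, whose product binds Muc16, was at 312 CPM there and 328 CPM in the epithelial-like cells.

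**Figure D3:**
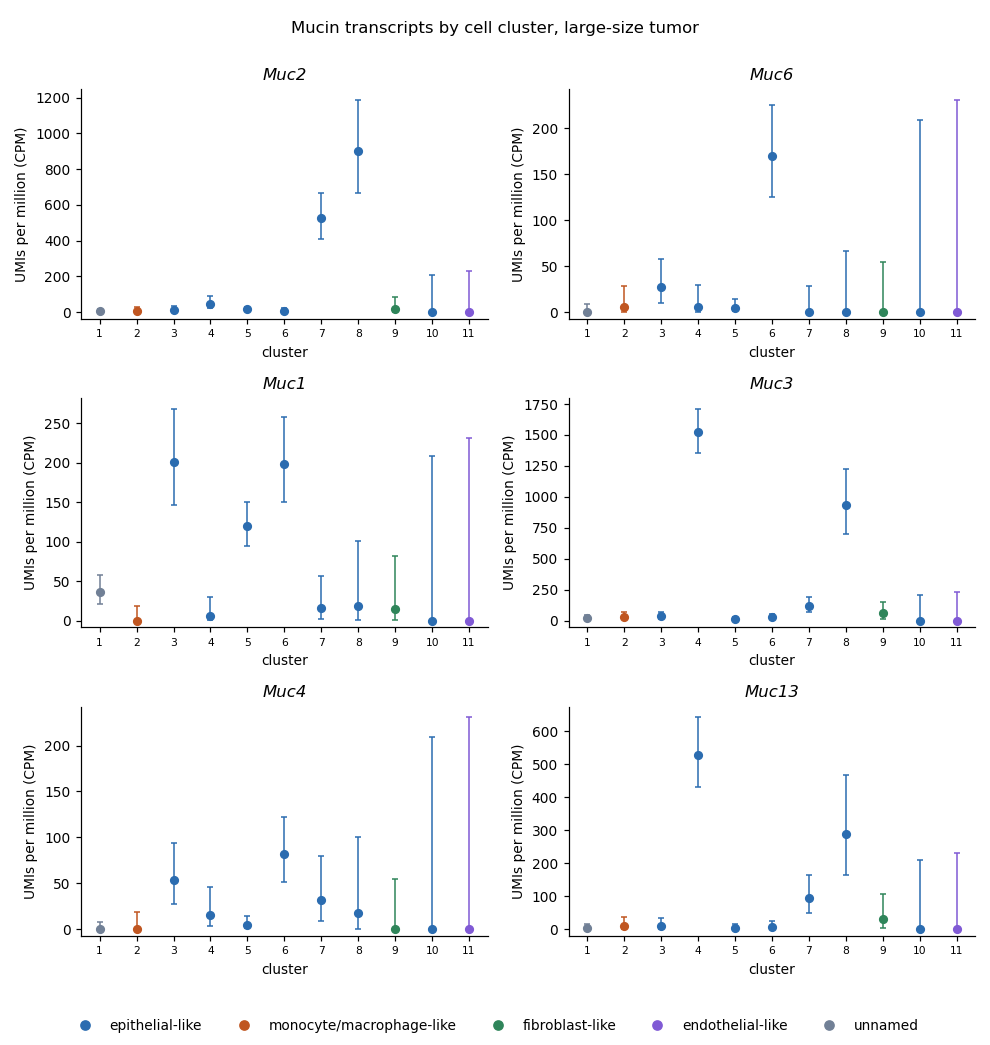
Level (CPM) of 6 mucins in each of the 11 clusters of the large-size tumor, drawn as sums with exact Poisson 95% intervals and colored by class. Muc2 stands out in clusters 7 and 8, Muc6 in cluster 6, and Muc3 and Muc13 in clusters 4 and 8, while the wide bars of clusters 10 and 11 come from 16 and 11 cells.

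The make-up of the mucin transcripts followed the same lines. A UMI of the 3′ kit is counted once a molecule whatever the transcript's length, so shares of UMIs were compared. Muc1 gave 85.0% to 90.3% of the mucin UMIs in medium clusters 2, 3 and 5, and 60.3% in cluster 1, where Muc6 added 15.8%. Muc3 gave 59.1% in cluster 4 and 64.1% in cluster 7. In the large-size tumor Muc3 gave 71.7% and Muc13 24.8% in cluster 4, Muc2 gave 67.0% in cluster 7, Muc3 gave 43.3% and Muc2 41.7% in cluster 8, and cluster 6 divided into 40.9% Muc1, 35.0% Muc6 and 16.8% Muc4.

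**Figure D4:**
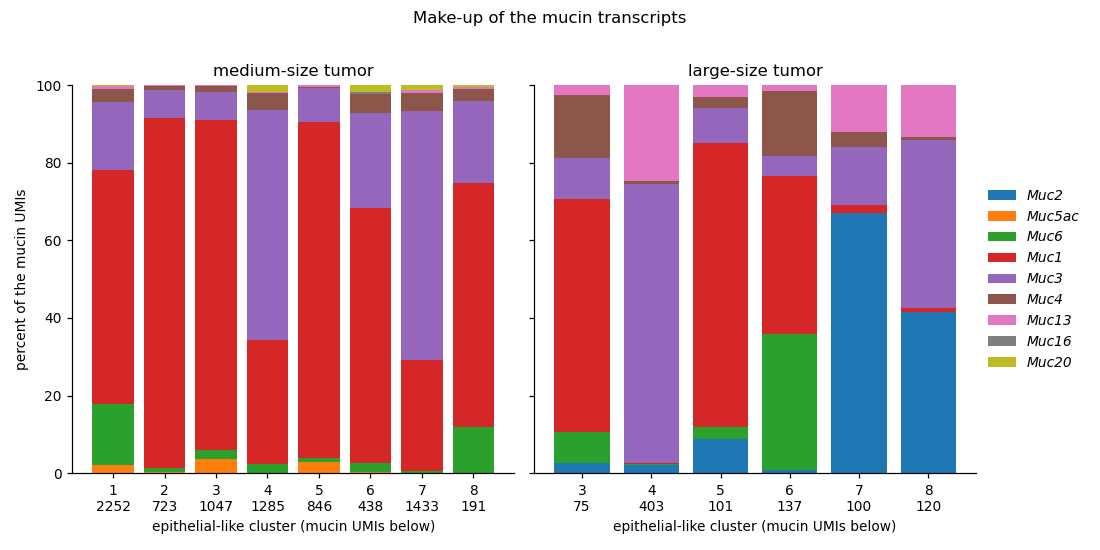
Share of each mucin among the mucin UMIs of each epithelial-like cluster with at least 20 such UMIs, with the number of mucin UMIs under the cluster number. Muc1 or Muc3 leads every medium cluster, and Muc2 leads large cluster 7 with 67.0%.

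The mucins went to different degrees with Vim, the filament gene of mesenchymal cells. As a description over the 14 medium clusters, which come from 1 library, the Pearson correlation of log2(CPM + 10) with Vim was -0.95 for Muc20, -0.93 for Muc4, -0.85 for Muc3, -0.59 for Muc13, -0.52 for Muc1, -0.35 for Muc6 and 0.018 for Muc5ac. Over the 8 epithelial-like clusters alone it was -0.96 for Muc20 and Muc3, -0.95 for Muc4, -0.71 for Muc13, -0.36 for Muc1, -0.19 for Muc6 and 0.36 for Muc5ac. The order was not that of the large-size tumor, where over 7 epithelial-like clusters the values were -0.73 for Muc2, -0.69 for Muc13, -0.61 for Muc3, -0.16 for Muc4, 0.27 for Muc6 and 0.60 for Muc1. Over all 11 large clusters Muc4 was at -0.62, Muc6 at -0.15 and Muc1 at -0.055, with Muc2 at -0.72, Muc13 at -0.66 and Muc3 at -0.61. Muc1 went with Cdh1, the epithelial cadherin, at 0.90 over the 14 medium clusters and 0.67 over the 8, and at 0.53 over the 11 large clusters and 0.35 over the 7.

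Of 7833 genes with at least 200 UMIs, the 3 whose pattern over the 14 clusters was most like that of Muc1 were Sh2d4a (r = 0.98), Wfdc2 (0.97) and Stard10 (0.97), and over the 11 large clusters these had r of 0.48, 0.63 and 0.66 with Muc1. For Muc3 they were Duox2 (0.98), an epithelial oxidase, Ttr (0.96) and Pglyrp1 (0.95), with Ttr at 0.14 and Pglyrp1 at 0.32 over the large clusters. For Muc4 they were Cited4 (0.95), Alg9 (0.94) and Wfdc18 (0.93), and over the large clusters Alg9 was at 0.40 and Wfdc18 at 0.93. For Muc6 they were Gpr137 (0.93), Tex2 (0.86) and Lcorl (0.85), the latter pair at -0.08 and 0.30 over the large clusters. Gpr137, Duox2 and Cited4 had under 20 UMIs in the large-size tumor and got no value there. The clusters come from 1 library a tumor, and the best of so many genes are high by selection.

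The machinery of mucin making was described by lists of genes, each as a count. Of all genes tested in the medium-size tumor, 12.4% were at least 2-fold higher and 14.3% at least 2-fold lower in epithelial-like than in other cells, and 12.8% and 10.3% in the large, with median log2 ratios of 0.14 and 0.028. Of 24 enzymes that build O-glycans on mucins, 18 had 20 UMIs in the medium-size tumor, 9 were at least 2-fold higher in epithelial-like than in other cells and 1 at least 2-fold lower, with a median log2 ratio of 0.92. Gcnt3, a branching enzyme, was 3.93-fold and Galnt7, which starts the chains, 2.40-fold higher, as was C1galt1, the core 1 synthase, at 2.19-fold, and Galnt1 was at 1.51. In the large-size tumor 5 of 13 were higher and 1 lower, with a median of 0.30.

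Beside the shares of 12.4% and 12.8% of all genes that were higher, 9 of 12 tested of the 14 secretory genes of mucous cells were higher and 0 lower in the medium-size tumor, with a median of 1.47, and 7 of 8 higher in the large, with a median of 2.54. Tff1 was 6.54-fold and Agr2 3.64-fold higher in the medium-size tumor, and 39.2-fold and 50.3-fold in the large. Of 22 transcription factors of mucin-making epithelia, 17 of 19 were higher in the medium-size tumor and 1 lower, Klf4, at 0.372, and 7 of 14 were higher in the large. One of these factors, Elf3, is also an epithelial marker used to name the clusters, and Spdef is in both lists. Of 12 partners and regulators of membrane mucins, 4 of 11 were higher and 2 lower in the medium-size tumor, and 3 of 11 higher in the large. Among them Lgals3, the galectin that binds mucin glycans, was at 0.918 and 0.977, and Erbb3 at 2.58 in the medium-size tumor.

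Genes that mark states were counted the same way, beside the same shares of all genes, although several of them also led the clusters. In the medium and large-size tumor respectively, 6 of 6 and 6 of 6 gastric pit genes were at least 2-fold higher in the epithelial-like cells, 3 of 4 and 3 of 3 gastric neck genes, 6 of 9 and 6 of 8 goblet genes, 3 of 6 and 9 of 9 enterocyte genes, and 0 of 9 and 4 of 8 cycling genes. Of these lists, the genes at least 2-fold lower were Ccl6 of the goblet list, at 0.018 and 0.038, which was highest in monocyte/macrophage-like cells, and Anpep of the enterocyte list, at 0.026 in the medium-size tumor. Of the mesenchymal genes 4 of 9 and 7 of 7 were at least 2-fold lower and 0 higher, and 2 of the 3 basal genes tested in the medium-size tumor were higher.

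The size comparison set the epithelial-like cells of the large-size tumor against those of the medium-size tumor. Of the 4 mucins with at least 200 UMIs in both tumors together, 1, Muc4, was at least 2-fold higher in the large-size tumor, as were 5.72% of the 7569 genes tested, and 1, Muc1, was at least 2-fold lower, as were 19.3%. The median log2 ratio of all genes tested was -0.18, so a mucin at equal CPM stood slightly above the typical gene. The sizes differ in depth and in the cells captured as well as in tumor, and with 1 sample each these cannot be told apart.

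Muc1 was at 269 CPM in the medium-size and 118 CPM in the large-size tumor, a ratio of 0.440 (0.377 to 0.511). The ratio was 0.433 (0.326 to 0.566) between the gastrokine clusters of the tumors and 0.461 (0.359 to 0.585) between the cycling clusters. Without large clusters 4 and 8, which carry enterocyte markers, it was 0.519 (0.444 to 0.603), and without cluster 7 too it was 0.571 (0.488 to 0.664). Without every cluster of at least 3 enterocyte or goblet markers it was 0.779. That set dropped medium clusters 1, 3, 4, 5 and 7 and large clusters 4 and 8. The medium gastrokine and cycling clusters were thus out while those of the large-size tumor stayed in. The 2-fold call was lost in these 3 sets. With every cell thinned to 500 UMIs, a Muc1 UMI was seen in 12.6% of the medium (11.3 to 14.0) and 4.01% of the large epithelial-like cells (2.85 to 5.47), where the monocyte/macrophage-like cells gave 2.10% and 0%.

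Muc3 went from 134 to 251 CPM, a ratio of 1.88 (1.68 to 2.09), and the direction turned with the cells included. Without large clusters 4 and 8, Muc3 was at 30.8 CPM and the ratio was 0.230 (0.163 to 0.315), so that the mucin counted as 2-fold lower in that set is Muc3 and not Muc1. Medium clusters 4 and 7, with 760 and 918 Muc3 UMIs, stayed in that set, so a fall was built into it. The Muc3 ratio fell less where clusters were left out of both tumors, as given in the last section. Between the gastrokine clusters Muc3 was at 0.189 (0.0754 to 0.393). Muc4 was at 14.2 and 30.4 CPM, a ratio of 2.15 (1.53 to 2.95), and at 2.34 (1.65 to 3.25) without clusters 4 and 8. The 2-fold call of Muc4 was lost in 9 of 17 settings, among them resolution 0.4 and 1.2, 20 principal components and mucins kept in the clustering, where the ratio lay between 1.53 and 1.97. Between the gastrokine clusters Muc4 was 3.06 times higher (1.84 to 4.92), on 79 and 23 UMIs, and between the cycling clusters 1.04 (0.194 to 3.63). Muc6 was at 25.8 and 38.3 CPM, a ratio of 1.48 (1.11 to 1.95), and at 1.42 (1.03 to 1.93) between the gastrokine clusters. The Muc6 ratio ran from 1.08, with variable genes by mean.var.plot, to 6.48, without clusters of at least 3 enterocyte or goblet markers. That set drops the gastrokine cluster of the medium-size tumor, with 355 Muc6 UMIs, but keeps the gastrokine cluster of the large.

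Muc2 and Muc13 had under 200 UMIs in both tumors together and so were not counted above. Muc2 went from 0.166 CPM, on 3 UMIs, to 91.2 CPM, a ratio of 550 (184 to 2698), and Muc13 from 2.16 to 89.2 CPM, a ratio of 41.4 (28.8 to 60.7). Without large clusters 4 and 8 the ratios were 375 (124 to 1860) and 6.95 (3.79 to 12.3). Without cluster 7 too, which holds much of the Muc2, they were 63.4 (17.1 to 350.2), on 12 UMIs, and 2.85 (1.07 to 6.44), on 7 UMIs. Between the gastrokine clusters Muc13 was at 1.40 (0.156 to 6.03).

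Muc5ac, at 6.19 CPM in the medium-size tumor, had 0 UMIs in the large, where 3 counts are 1.98 CPM, so it was at least 3.12-fold lower. Between the cycling clusters it was at least 2.35-fold lower and between the gastrokine clusters at least 1.43-fold. Muc20 was at least 1.53-fold lower over the epithelial-like cells. For Muc16 the 4 UMIs of the medium-size tumor were too few for a difference to be detectable at this depth.

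**Figure D5:**
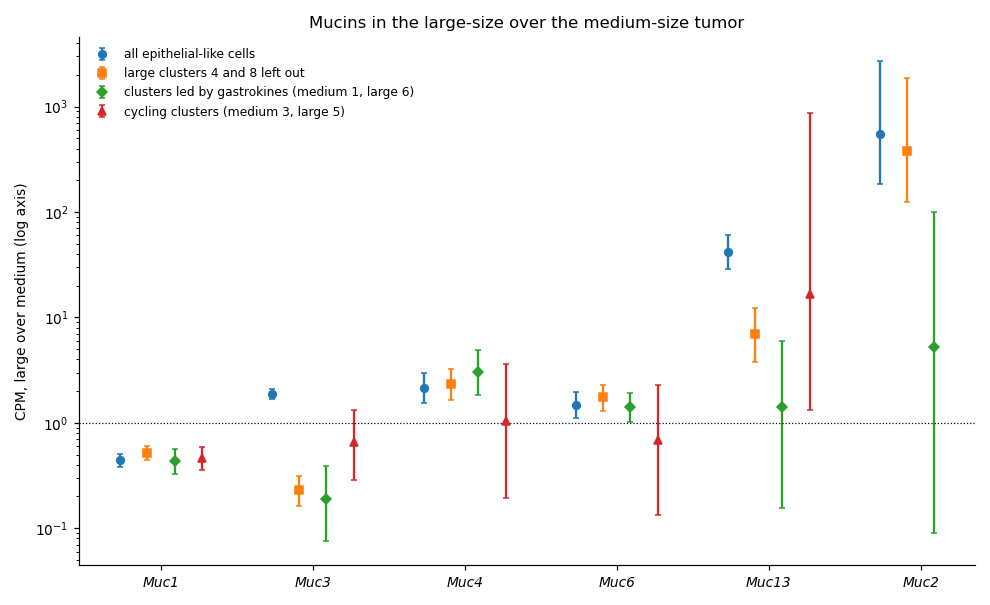
Ratio of CPM, large-size over medium-size tumor, for 6 mucins on a log axis, for all epithelial-like cells and for 3 narrower sets of cells; bars are exact 95% intervals for counting error and the dotted line marks equality. Muc1 lies between 0.433 and 0.519 in the 4 sets. Muc3 crosses from 1.88 to 0.230 when large clusters 4 and 8, but no medium clusters, are left out. Ratios with no UMI on a side are not drawn.

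The lists were counted between the tumors in the same way, beside 5.72% of all genes tested at least 2-fold higher, 19.3% at least 2-fold lower and a median of -0.18. Of 9 enterocyte genes tested 8 were at least 2-fold higher in the large-size tumor and 1 lower, with a median log2 ratio of 7.14, and of 8 goblet genes 3 were higher and 1 lower (median 0.44). Of 6 gastric pit genes 0 were higher and 5 lower (median -1.64), and of 4 gastric neck genes 1 was higher and 2 lower (median -1.53). For the O-glycan enzymes 1 of 15 was higher and 2 lower, for the mucous cell secretory genes 3 of 10 and 2, for the partners of membrane mucins 0 of 11 and 1, and for the transcription factors 2 of 16 and 6. Of 9 cycling genes 3 were higher and 0 lower, of 5 mesenchymal genes 0 and 3, and the 1 basal gene tested was lower.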

How the data were processed

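Tumors were dissociated with the Miltenyi mouse tumor kit and sequenced as 10x Chromium 3′ (v2) libraries. The authors made the counts with Cell Ranger on mm10, and the deposited tables hold UMI counts per gene and cell, not normalized, 1 table a tumor with its 4 technical replicates pooled. The annotation, Cell Ranger's version, its cell calling and its counting strand are not given in the sources used here. Total counts were 20301669 UMIs in the medium-size and 2239012 in the large-size tumor, so that 3 counts are 0.148 and 1.34 CPM. The 13 mitochondrial rows hold 0 UMIs in both.

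Cells were clustered for each tumor alone in Seurat 5.3.0 (R 4.3.3; log normalization to 10000, 2000 variable genes, 10 principal components, resolution 0.8), with no mucin among the variable genes. A marker counted for a cluster where it was seen in at least 10% of its cells, at a CPM at least 25% of that in its highest cluster. A cluster was named where at least 3 markers of a class counted. It was left unnamed where another class had at least 3 markers and a counted share of at least 60% of the best. No cell was removed: Scrublet called 0 and 9 cells (0.587%) as doublets, and with 0 calls it cannot be said to have worked on the medium-size tumor.

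UMIs were summed over cells and given as CPM with exact Poisson intervals, shares with exact binomial and ratios with exact conditional binomial intervals, all at 95%. They cover counting error only. In the spread over clusters, a lowest sum under 3 entered its interval as 3. Genes needed 20 UMIs within a tumor and 200 UMIs for the comparison of the tumors. A fold was called at 2, a spread over clusters at 4. Sums under 3 were set to 3 for folds, and no fold was given where both sums were at or under 3 or where this floor turned the direction. The count steps were tested on simulated data. TMM factors came from edgeR 4.0.16.

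The members, gene lists, marker lists and naming thresholds were chosen with earlier results of these data known. The minimum of 20 UMIs, the motifs, the comparisons of cells with and without a mucin UMI, the pairing of like clusters, and the rule on a floor that turns the direction were settled after values were seen. Named genes were the 9 mucins, other mucin rows by level, the 3 genes most like each mucin with 200 UMIs in the medium-size tumor, and genes of the lists. Alternatives in clustering, naming, filters, scaling and depth were run. A further allele of these mice is not reported here.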

Additional observations from a re-analysis of the deposited data

How the results depend on the processing

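No paired analysis was possible because the technical replicates of each tumor are pooled in 1 table, and for the same reason no replicate could be left out. Of 20 settings in all, 11 bore on the counts of mucins higher in epithelial-like cells and 9 or 10 on the counts spread at least 4-fold over clusters, and these counts kept within 1.5 times of the reported value, though single calls were lost (Muc1 spread, Muc20 and large-size Muc13 over other cells) or gained (medium-size Muc13). Of 394 values for single mucins, 95 moved beyond their counting interval. None that was past its fold line turned direction, but the large over medium ratio of Muc3, 1.88, fell under 1 in 3 settings. It was 0.914 without clusters of at least 3 enterocyte or goblet markers in either tumor. With all medium clusters kept, it was 0.230 without large clusters 4 and 8 and 0.157 without large clusters 4, 7 and 8. The comparison of the tumors was less firm. The count of mucins at least 2-fold higher in the large-size tumor went from 1 to 0 at resolution 0.4 or 1.2, with 20 principal components, with variable genes by mean.var.plot, with mucin genes kept in the clustering, with cells under 500 detected genes removed, with each cell classed by its own markers, with clusters of at least 3 enterocyte or goblet markers left out, over all cells, and, added after seeing the data, with large cluster 1 counted as epithelial-like. It went to 3 with at least 50 UMIs or no filter on UMIs. Without the clusters of at least 3 enterocyte or goblet markers, Muc4 and Muc6 had their highest ratios, 5.44 and 6.48. They were not counted there because each had under 200 UMIs in both tumors together. The count at least 2-fold lower went from 1 to 2 with at least 50 UMIs or no filter. It went to 0 with clusters of at least 3 enterocyte or goblet markers left out. That setting drops 5 medium clusters (1, 3, 4, 5 and 7, with the gastrokine and cycling ones) and 2 large clusters (4 and 8). Over 17 settings the large over medium ratio ran from 1.53 to 5.44 for Muc4, from 0.314 to 0.779 for Muc1, from 0.157 to 2.52 for Muc3, from 1.08 to 6.48 for Muc6, from 2.85 to 43.8 for Muc13 and from 53.3 to 582 for Muc2. For Muc5ac and Muc20 it ran from 0.227 to 0.425 and from 0.480 to 0.865 over 15 settings. No fold could be given for either with every cell thinned to 500 UMIs or with clusters of at least 3 enterocyte or goblet markers left out. There 3 counts in the large-size tumor exceed the medium level. That rule was tightened after seeing the data, and without it Muc5ac would have read as higher in the large-size tumor, where it has 0 UMIs. Depth limits the large-size tumor most, with 3 counts at 1.98 CPM over its epithelial-like cells against 0.166 in the medium-size tumor.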
